A study of Mus musculus with 6 samples.

Results

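The genes described here are 5 genes of the red blood cell, chosen as a measure of blood in the dissected lens. Whether their RNA came from blood or from cells of the lens was not tested. They are the alpha globin Hba-a1, the beta globins Hbb-bs and Hbb-bt, the anion exchanger Slc4a1 and the haem synthesis enzyme Alas2. They are 5 of the 19057 genes named on the bead array, and were measured by every probe that the platform annotation assigns to their symbols, 13 of 45281. Hba-a1 had 1 probe, Hbb-bs 6, Hbb-bt 4, Slc4a1 1 and Alas2 1. Total RNA came from lenses taken on postnatal day 4, with 3 arrays of Tdrd7 null and 3 of Tdrd7 heterozygous animals, so the control group also carries 1 mutant allele. All 6 arrays share the strain background, given in the labels as a mix of C57BL/6J and C3A.Blia. The labels do not say whether an array held lenses of 1 animal or of several, nor whether vessels were removed from the lens. The p-values therefore measure the spread between these arrays, which may be technical.

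Haemoglobin is a tetramer of alpha and beta chains, each holding a haem group that binds oxygen. Mouse red cells lose their nucleus, but young red cells (reticulocytes) still carry globin mRNA in large amounts, so that blood trapped in a dissected organ can be seen in its RNA. The lens itself has no vessels. Around birth it is wrapped in a transient net of hyaloid vessels, the tunica vasculosa lentis, which regresses during the first weeks after birth.

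Hba-a1 lies at chr11:32283672-32284486 of mouse build GRCm38.p6, 12005 bases from its copy Hba-a2. Hbb-bt (chr7:103812524-103813923) and Hbb-bs (chr7:103826523-103827928) lie 12599 bases apart in the beta globin cluster. Slc4a1 is at chr11:102348820-102365281 and Alas2 at chrX:150547417-150570622. The probes' own sequences were not used here, so a probe named for Hba-a1 may also read Hba-a2, and probes named for Hbb-bs and Hbb-bt may read either beta globin. Hba-a1 and Hba-a2 share a run of 247 identical bases within the 250 bases before their start sites. Hbb-bs and Hbb-bt are identical at 185 of 261 aligned positions (70.9%) over the same stretch.

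The promoters of the 3 globin genes are shown for their known elements. Whether these bear on the variation of globin signal between arrays was not tested. Each line gives the 250 bases before the annotated start, 5′ to 3′ on the gene's strand, from RefSeq on build GRCm38.p6. The stretches are chr11:32283422-32283671 on the plus strand for Hba-a1, chr7:103827929-103828178 on the minus strand for Hbb-bs and chr7:103813924-103814173 on the minus strand for Hbb-bt. Capitals mark every copy, on either strand, of the motifs CCAAT (the CCAAT box), CACCC (the core of the CACCC box), TATAA (the TATA box) and GATAA (the core of a GATA factor site), elements known in globin promoters.

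Hba-a1: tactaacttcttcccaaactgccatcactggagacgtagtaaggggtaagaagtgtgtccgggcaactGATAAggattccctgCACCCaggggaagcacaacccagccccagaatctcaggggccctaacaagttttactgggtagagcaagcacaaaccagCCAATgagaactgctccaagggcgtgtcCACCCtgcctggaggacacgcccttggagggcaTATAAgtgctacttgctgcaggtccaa

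Hbb-bs: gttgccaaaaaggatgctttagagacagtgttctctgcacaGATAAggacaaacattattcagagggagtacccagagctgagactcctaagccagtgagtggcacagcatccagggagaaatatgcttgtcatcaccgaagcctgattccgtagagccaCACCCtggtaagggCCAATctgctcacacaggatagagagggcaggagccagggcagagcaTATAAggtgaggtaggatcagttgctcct

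Hbb-bt: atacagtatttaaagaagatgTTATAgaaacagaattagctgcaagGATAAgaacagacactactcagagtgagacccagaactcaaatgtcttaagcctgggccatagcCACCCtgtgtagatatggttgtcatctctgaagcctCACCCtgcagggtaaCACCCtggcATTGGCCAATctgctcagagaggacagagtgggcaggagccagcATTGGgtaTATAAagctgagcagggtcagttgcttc

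All 4 motifs occurred in each of these windows. The TATAA nearest the gene began 27 bases before the start of Hba-a1, 29 before Hbb-bs and 28 before Hbb-bt. CCAAT on the gene's strand began 88, 76 and 75 bases before the start, in the same order, and GATAA began 182, 209 and 204 bases before it. Hba-a1 held 2 copies of CACCC, Hbb-bs 1 and Hbb-bt 3. Of 32851 promoter windows of the same length in the RefSeq table, 33.8% held CCAAT, 52% CACCC, 22.8% TATAA and 22.6% GATAA on either strand, and 318 (0.968%) held all 4. The Alas2 window held 3 copies of CACCC, an overlapping pair of TATAA on opposite strands and 1 GATAA, but no CCAAT. Slc4a1 had no entry in the table.

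Each array gives 1 raw intensity per probe on a linear scale, with a detection p-value against negative control beads, and a probe is called detected here at a detection p under 0.05. Between 13901 and 15765 probes were detected per array. Arrays of a genotype are called a, b and c, letters that pair nothing. Null array b stood apart: its correlation with the other arrays over tested probes was 0.962 to 0.972, while each of the other 5 arrays reached at least 0.986 with another. Tdrd7, the targeted gene, fell by 3.48 on the log2 scale in null lens (SE 0.153, limma adjusted p = 1.47e-05). Of 13 lens markers 10 were tested, with raw means in heterozygous and null lens of 37800 ± 1612 and 30150 ± 10290 (SD, n = 3) for the alpha crystallin Cryaa and 38730 ± 2295 and 39660 ± 2954 (SD, n = 3) for the water channel Mip. Null array b was low for Cryaa, at 18540 against 33790 to 39440 on the other arrays. Gja3, a lens gap junction gene, was detected on no array, which says only that its probe signal was not well above background.

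The alpha globin Hba-a1 (ILMN_1212702) was detected on all 6 arrays. Its raw signal was 293, 207.9 and 119.2 in heterozygous lens (arrays a to c) and 349.8, 456.1 and 177.4 in null lens (arrays a to c). Null arrays a and b were the brightest, heterozygous array c was the dimmest, and null array c lay below heterozygous arrays a and b, so the groups overlap. After normalisation the highest array exceeded the lowest by 2.44 on the log2 scale, a 5.44-fold range. In bulk tissue, fewer cells with globin RNA and less globin RNA per cell cannot be told apart.

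The adult beta globin Hbb-bs was read by 6 probes, all of which passed the filter of detection on at least 3 arrays. Its brightest probe (ILMN_2545963) gave raw signals of 262.6, 271.6 and 132.9 in heterozygous lens (arrays a to c) and 435.7, 314.3 and 213.5 in null lens (arrays a to c). The order of arrays was close to that of Hba-a1, with heterozygous array c lowest and null array a now highest. Probes ILMN_1223244, ILMN_1229203 and ILMN_1244316 had the same lowest array. The dimmest of the 6 (ILMN_2544056) spanned 77.01 to 113.3 in raw signal and was not detected on heterozygous array c, where its detection p was 0.0598.

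For the Hbb-bs probe ILMN_1255462 heterozygous arrays a and b lay far apart, with b the higher. Its raw signal was 115.5, 159.9 and 93.17 in heterozygous lens (arrays a to c) and 259.9, 187.4 and 149.2 in null lens (arrays a to c). Heterozygous array b was also above a on ILMN_2545963, ILMN_2544056 and the Hbb-bt probe ILMN_1239117, by less, while on ILMN_1223244 array a was the higher, at 289.5 against 246.6. This probe is singled out after its values were seen.

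The other beta globin, Hbb-bt, had 4 probes, of which 3 passed the filter. The brightest (ILMN_1236718) gave 260.9, 202.1 and 111.6 in heterozygous lens (arrays a to c) and 345.4, 297 and 166.6 in null lens (arrays a to c). Heterozygous array c was again lowest and null array a highest. The fourth probe, ILMN_1235372, was detected on 0 of 6 arrays, with raw signals of 58.52 to 79.06 and detection p-values of 0.078 to 0.889. Its difference between genotypes was not tested.

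Slc4a1 encodes band 3, the chloride and bicarbonate exchanger that anchors the red cell membrane to its skeleton. Its probe (ILMN_1227675) was detected on all 6 arrays, with raw signals of 133, 122.1 and 128.8 in heterozygous lens (arrays a to c) and 123.2, 172 and 113.9 in null lens (arrays a to c). Null array b stood above the other arrays, which lay between 113.9 and 133, and heterozygous array c, lowest for the globins, lay between the other heterozygous arrays in raw signal and above them after normalisation, at 6.39 against 6.22 and 6.02 (log2). Alas2 encodes the erythroid form of the first enzyme of haem synthesis. It was detected on 0 of 6 arrays, with raw signals of 65.37 to 75.4 and detection p-values of 0.127 to 0.734, which says only that its probe was not well above background.

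**Figure D1:**
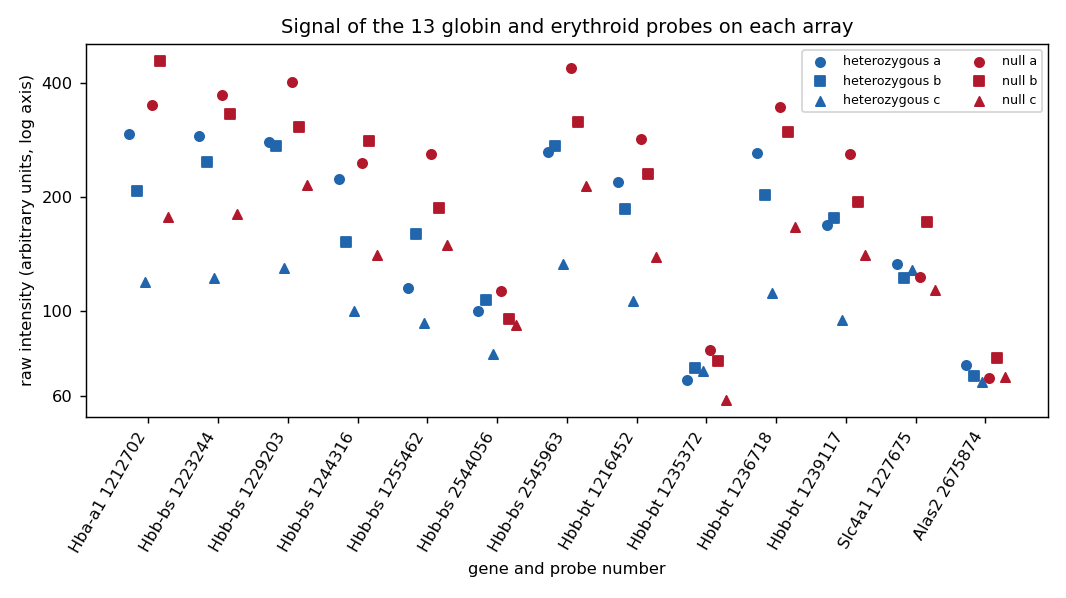
Raw intensity (log axis) of each of the 13 probes on the 6 arrays, heterozygous in blue and null in red, with 1 symbol per array letter. The 10 detected globin probes share heterozygous array c as their lowest array, while Slc4a1 is not lowest there, and the undetected probes of Hbb-bt and Alas2 stay below 80.

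Across the 10 globin probes that passed the filter, heterozygous array c was lowest for 10, null array a highest for 8 and null array b highest for 2. The median globin probe deviated from its own mean over arrays by -1.21 on heterozygous array c, by 0.23 and 0.06 on the other heterozygous arrays, a and b. On the null arrays it deviated by 0.89 (a), 0.44 (b) and -0.37 (c), all on the log2 scale. Null array c ranked 2 or 3 from the bottom for each of these 10 probes. For Hba-a1 the range was 1.65 among the heterozygous and 1.69 among the null arrays (log2), both wider than the difference of the group means, 0.86.

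The spread between arrays of a genotype was large for these genes. The pooled SD within genotypes was 0.86 on the log2 scale for Hba-a1, 0.68 for the Hbb-bs probe ILMN_2545963 and 0.78 for the Hbb-bt probe ILMN_1236718, against a median of 0.22 over all 14636 tested probes. As a description, 99.8% of the tested probes had a smaller within-genotype SD than Hba-a1, and over the 10 globin probes this share ran from 89.6% to 99.8%. For Slc4a1 the SD was 0.35, and 83.8% of the probes had a smaller one.

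The globin probes varied together. Over the 6 arrays the Pearson correlation between pairs of globin probes, 45 pairs in all, ran from 0.64 to 0.998 with a median of 0.93. These probes share arrays and may share transcripts, so the pairs are a description. Hba-a1 and Hbb-bt, which lie on different chromosomes, gave r = 0.96 (exact permutation p = 0.00694) and Spearman's rho = 0.94 (exact permutation p = 0.0167), with adjusted values of 0.132 and 0.159 over 19 relations computed with Hba-a1. Without the 2 arrays farthest from the median of Hba-a1, heterozygous c and null b, r was 0.99 over 4 arrays. With the genotype means subtracted it was 0.94. Hba-a1 and Hbb-bs gave r = 0.88 (exact permutation p = 0.0222, adjusted 0.211) and rho = 0.89 (exact permutation p = 0.0333, adjusted 0.211), with 0.85 over the 4 arrays and 0.83 after the genotype means were subtracted.

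Slc4a1 was less like the globins over all 6 arrays. Its r with the 10 globin probes ran from -0.36 to 0.44. Against Hba-a1 it was 0.44 (exact permutation p = 0.415, adjusted 0.717) with rho = 0.37 (exact permutation p = 0.497, adjusted 0.726), and it became -0.29 without null array b, 0.83 without heterozygous array c and 0.87 without both, so it rests on single arrays. Among the globin probes, ILMN_1255462 was the least like the alpha globin after ILMN_2544056, with r of 0.68 and 0.64 to Hba-a1, against 0.99 for the Hbb-bs probe ILMN_1244316.

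**Figure D2:**
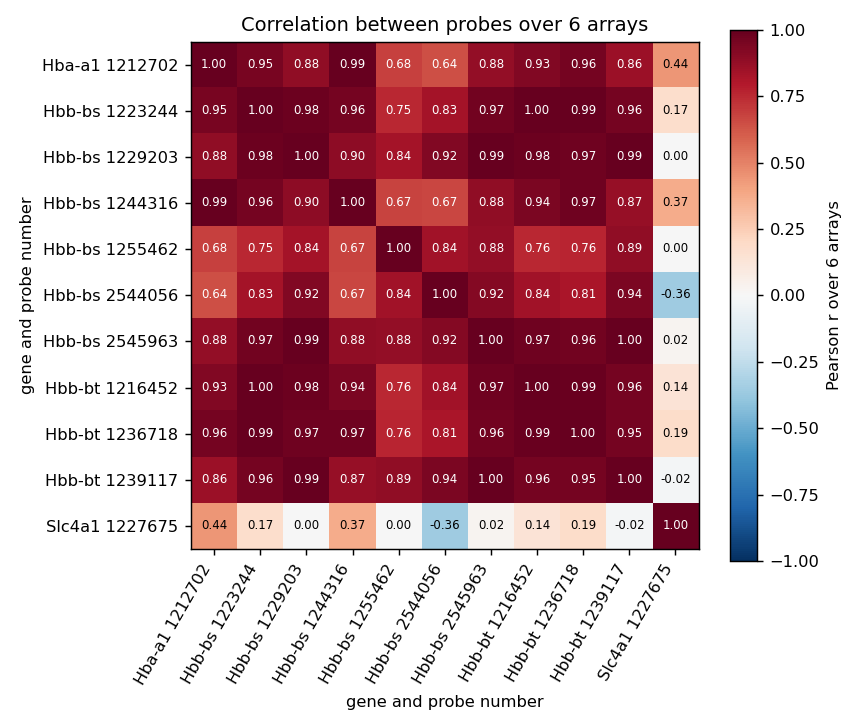
Pearson r over 6 arrays between each pair of the 11 globin and Slc4a1 probes that passed the filter, from blue (-1) to red (1). The 10 globin probes form a block of r of at least 0.64, and Slc4a1 lies outside it with r of -0.36 to 0.44.

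The comparison of null with heterozygous lens asked whether the lens without Tdrd7 carried more or less globin RNA. The 3 globin genes had higher means in null lens, and none of the differences passed the test. Hba-a1 was 327.8 ± 140.7 (SD, n = 3) in null and 206.7 ± 86.88 (SD, n = 3) in heterozygous lens by raw signal. Its log2 difference was 0.86 (SE 0.472, 95% confidence interval -0.20 to 1.91, limma adjusted p = 0.964), so the interval holds both lower and higher levels in null lens. The pooled SD within genotypes, 0.86, equalled the difference.

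The beta globins gave like values. Hbb-bs (ILMN_2545963) was 321.2 ± 111.3 (SD, n = 3) in null and 222.4 ± 77.6 (SD, n = 3) in heterozygous lens, a log2 difference of 0.70 (SE 0.384, 95% interval -0.16 to 1.56, limma adjusted p = 0.964). Hbb-bt (ILMN_1236718) was 269.7 ± 92.48 (SD, n = 3) and 191.5 ± 75.25 (SD, n = 3), a log2 difference of 0.71 (SE 0.431, 95% interval -0.25 to 1.68, limma adjusted p = 0.964). Leaving out 1 array at a time moved these differences between 0.41 and 1.36 for Hba-a1, 0.29 and 1.04 for Hbb-bs and 0.25 and 1.12 for Hbb-bt. The lowest of each came without heterozygous array c and the highest without null array c, and without null array b, which stood apart, they were 0.51, 0.69 and 0.59.

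Of the 11 member probes tested, 0 passed at an adjusted p of 0.05, where 0.0137% of all tested probes passed in either direction. The 10 globin probes differed by 0.29 to 1.11 with a median of 0.71, all above 0, as were 50.5% of the tested probes, whose median was 0.002. These 10 probes read few transcripts and the same 6 samples, so their shared sign is not 10 observations. The groups overlapped for every member probe, where 10.9% of all tested probes had groups that did not, 5.43% with all null arrays above and 5.47% with all null arrays below the heterozygous ones. At an unadjusted limma p under 0.05 there was 1 member probe, the Hbb-bs probe ILMN_1255462 named above, with a difference of 1.11 (SE 0.337, unadjusted p = 0.0084, adjusted p = 0.964), against 4.11% of all tested probes.

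Slc4a1 differed by 0.12 (SE 0.227, 95% interval -0.39 to 0.63, limma adjusted p = 0.966). Its raw mean was 136.4 ± 31.21 (SD, n = 3) in null and 128 ± 5.484 (SD, n = 3) in heterozygous lens, and without null array b the difference was -0.13. Alas2 had raw means of 69.76 ± 4.883 and 68.39 ± 3.495 (SD, n = 3) and was not tested.

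**Figure D3:**
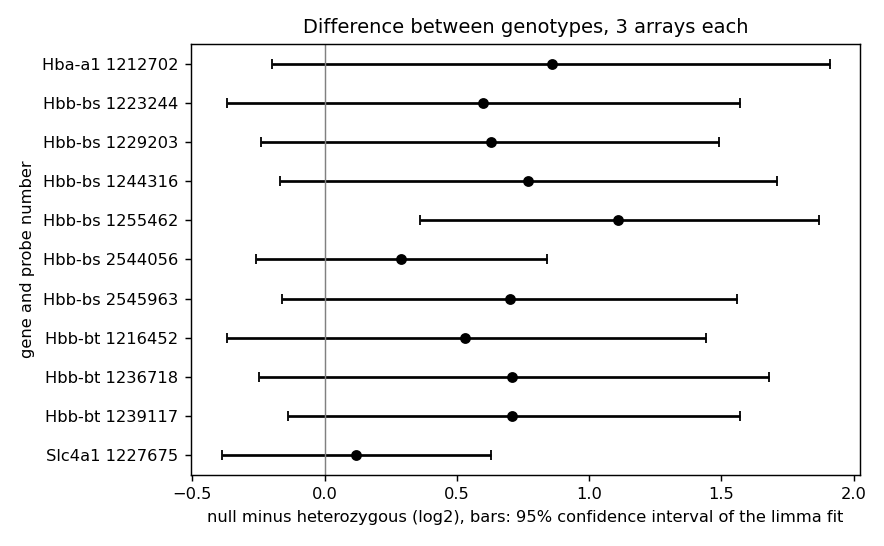
Null minus heterozygous difference (log2) of each tested probe with its 95% confidence interval from the limma fit, 3 arrays a group. The points of the 10 globin probes lie between 0.29 and 1.11, and the interval leaves out 0 for ILMN_1255462 alone.

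Other red cell genes gave little signal in these lenses. Of 28 listed genes 23 were named on the array, 5 were tested and 11 were detected on no array: the membrane genes Epb42, Rhag and Rhd, the erythroid transcription factor genes Klf1, Tal1 and Nfe2, the carbonic anhydrase gene Car1, and the globins Hbq1a, Hba-x, Hbb-y and Hbb-b2. Hba-x and Hbb-y are embryonic globins. Hbb-b2 belongs to the other common arrangement of the adult beta globin genes among mouse strains, and its detection p was at least 0.696. The summed raw signal of the 23 genes was 1698 to 1860 on heterozygous and 1705 to 1810 on null arrays. Most of these genes lay near background, so this sum says little about their levels.

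Of the 5 tested red cell genes 0 passed in limma, and 0 had an unadjusted p under 0.05. The blood group gene Ermap and the transferrin receptor gene Tfr2 each differed by 0.23. For both, all null arrays lay above the heterozygous ones after normalisation, as for 5.43% of all tested probes. Tfr2 was detected on 1 heterozygous and 3 null arrays, so the null arrays alone met the filter. Its raw signals overlapped, at 76.53 to 85.27 in heterozygous and 78.65 to 88.13 in null lens. The erythropoietin receptor gene Epor differed by 0.19 and the mitochondrial iron importer gene Slc25a37 by -0.01 (limma adjusted p over the 5 genes 0.964 to 1). The median difference was 0.19, but it was 0.08 with a larger background offset and 0.09 without heterozygous array b. All 5 had a positive r with Hba-a1, with a median of 0.44, where 49.9% of all tested probes had a positive one. Hemgn, an erythroid nuclear protein gene, had r = 0.82 and lay at raw signals of 69.64 to 84.25, near the array background.

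Genes of haem synthesis and breakdown, which every tissue uses, were measured more fully, with 12 of 16 listed genes tested. In this list 5 genes were higher and 7 lower in null lens, 0 passed (0 at an unadjusted limma p under 0.05), and the median difference was -0.07. Alad, the second enzyme of haem synthesis, differed by -0.26 and had raw signals of 1219, 667.1 and 463.1 in heterozygous lens (arrays a to c) and 566.5, 554.4 and 765 in null lens (arrays a to c). The ferrochelatase gene Fech, whose enzyme sets iron into haem, differed by 0.25, Urod by -0.20 and the mitochondrial glycine carrier gene Slc25a38 by -0.19. The median r of the 12 with Hba-a1 was 0.15.

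Membrane skeleton genes that red cells share with other tissues, lens fibers among them, were 8 higher and 3 lower of 11 tested, with 0 passing (1 at an unadjusted limma p under 0.05), a median difference of 0.19 and a median r with Hba-a1 of -0.15. The median difference was 0.04 when heterozygous array b was left out and 0.05 when null array a was. Sptbn1, a spectrin gene, differed by 0.44, the tropomodulin gene Tmod1 by -0.41, and the adducin genes Add3 by -0.40 and Add1 by 0.31. Genes high in reticulocytes and in other tissues were 5 higher and 6 lower of 11 tested, with 0 passing (0 at an unadjusted limma p under 0.05) and a median of -0.03. Hagh, a glyoxalase gene, differed by 0.69 and owed this to null array b, at 658.5 against 215 to 240.3 on the other arrays. Mkrn1 differed by 0.44, the mitophagy receptor gene Bnip3l by 0.32 and Fbxo7 by -0.26. The non-erythroid globins Cygb and Mb differed by -0.14 and -0.10.

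Markers of other blood cells were mostly not detected. Of 13 leukocyte and macrophage genes on the array 8 were detected on no array, among them Ptprc, the common leukocyte gene, and the neutrophil genes S100a8 and S100a9. The 4 tested genes had a median difference of 0.05, with Ltf at 0.32, Lyz1 at -0.15, Aif1 at 0.07 and Csf1r at 0.03, and 0 passed (0 at an unadjusted limma p under 0.05). Their summed raw signal was 1060 to 1085 on heterozygous and 1029 to 1089 on null arrays. Of 7 platelet genes Gp9 alone was tested, with a difference of -0.44 and an r of -0.65 with Hba-a1. Null array b was low for Gp9, at 76.07 against 97.9 to 116 on the other arrays, and the difference was -0.06 without it and 0.04 with array weights.

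Co-variation with vessels was examined through 22 endothelial and 9 pericyte genes, of which 13 and 3 were tested. Pericytes are the contractile cells that wrap small vessels. Of these 16 genes 12 had a positive Pearson r with Hba-a1 (75%) and 6 had an r of at least 0.5 (37.5%), where 49.9% and 17.2% of all tested probes did. Their median r was 0.32 and that of all tested probes 0. None of the 16 relations passed after adjustment: the smallest adjusted value was 0.664 for Pearson and 0.267 for Spearman (exact permutation tests). The smallest possible unadjusted exact permutation p for Spearman was 0.00278. At an unadjusted exact permutation p under 0.05 there was 1 gene, Mcam, by either measure.

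Mcam, an adhesion molecule of pericytes and endothelium, had r = 0.80 (exact permutation p = 0.0458) and rho = 0.94 (exact permutation p = 0.0167). Its raw signal was 81.82, 88.15 and 72.7 in heterozygous lens (arrays a to c) and 85.27, 100 and 72.81 in null lens (arrays a to c). It was lowest on heterozygous array c and highest on null array b, as Hba-a1 was, but it was detected on 3 of 6 arrays, and r was 0.46 without heterozygous array c and null array b. Sox18, an endothelial transcription factor gene, had r = 0.74 (exact permutation p = 0.122, adjusted 0.664), rho = 0.49 (exact permutation p = 0.356) and 0.68 over the 4 arrays. It was detected on 5 of 6 arrays, at raw signals of 77.71 to 93.37. Among the heterozygous arrays it spanned 0.02 on the log2 scale, where Hba-a1 spanned 1.65.

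Cldn5, the tight junction protein of endothelium, had r = 0.63 (exact permutation p = 0.169, adjusted 0.664) and rho = 0.66 (exact permutation p = 0.175). Its raw signal was 99.53, 160.7 and 93.81 in heterozygous lens (arrays a to c) and 167.3, 178.8 and 111.3 in null lens (arrays a to c). Null arrays a and b were high and heterozygous array c low for Cldn5 as for the globins, but heterozygous array a, at 293 for Hba-a1, was low, and r was 0.19 over the 4 arrays. The junction gene Esam also had r = 0.63 (exact permutation p = 0.167, adjusted 0.664), and 0.38 over the 4 arrays.

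At the other end, Ramp2 had r = -0.42 (exact permutation p = 0.404, adjusted 0.808), the pericyte receptor gene Notch3 -0.24 (exact permutation p = 0.668, adjusted 0.854) and the angiopoietin receptor gene Tek -0.17 (exact permutation p = 0.762, adjusted 0.871). Notch3 and Tek were lowest on null array b, and without it their r with Hba-a1 was 0.56 and 0.59. The sign for these 2 genes thus rested on that array. With the genotype means subtracted, 10 of the 16 vessel genes had an r above 0, with a median of 0.21. Emcn, Robo4 and Flt1 turned from positive to negative (-0.22, -0.13 and -0.36) and Tek from negative to 0.07. With Hbb-bs in place of Hba-a1 the median was 0.36, with r = 0.79 for Esam and 0.74 for Cldn5.

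**Figure D4:**
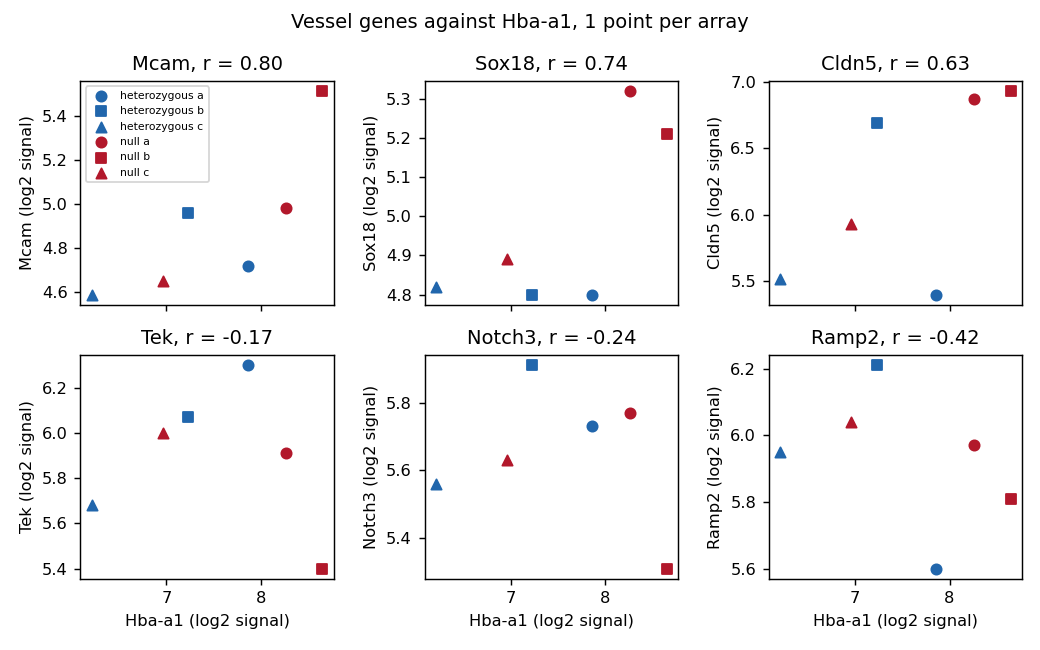
Normalised log2 signal of the 3 vessel genes with the highest and the 3 with the lowest r, against that of Hba-a1, 1 point per array (heterozygous blue, null red, 1 symbol per letter). Mcam reaches 0.80 with null array b at its upper end, and Tek and Notch3 turn downward at null array b.

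Between genotypes the endothelial genes were 11 higher and 2 lower in null lens with a median difference of 0.16, and the pericyte genes 2 higher and 1 lower with a median of 0.29. Of all tested probes 50.5% were higher in null lens. The pericyte median was 0.06 without null array b, 0.48 without null array c and -0.17 for genes detected on all 6 arrays. None of the 16 genes passed, and at an unadjusted limma p under 0.05 there were 2 endothelial genes and 1 pericyte gene, against 4.11% of all tested probes. Cldn5 differed by 0.70, Flt1 by 0.51, Esam by 0.40 and the pericyte gene Rgs5 by 1.08 (SE 0.179, limma adjusted p = 0.362). Emcn, an endothelial sialomucin gene, was detected on 0 heterozygous and 3 null arrays, so it passed the filter through the null arrays alone. It is 1 of the 2 endothelial genes at an unadjusted limma p under 0.05. The other, Flt1, and the pericyte gene Rgs5 were each detected on 1 heterozygous and 3 null arrays. Their null arrays alone thus met the filter too, and their raw heterozygous means, 78.29 and 80.83, lay near background. For Emcn the log2 difference was 0.48 (95% interval 0.10 to 0.86, limma adjusted p = 0.964), on raw signals of 70.48 to 91.13, near background. With heterozygous signals raised to no less than the dimmest detected probe, the means differed 1.24-fold, a value that leaves out the spread between arrays. Rgs5 had r = 0.58 with Hba-a1 over all arrays, 0.30 with the genotype means subtracted and -0.20 over the 4 arrays. The summed raw signal of the vessel genes was 2176 to 2490 on heterozygous and 2236 to 2611 on null arrays for endothelium, and 652.9 to 760.7 and 683.8 to 743.4 for pericytes. The endothelial genes Tie1, Icam2, Ly6c1, Ecscr and Aplnr and the pericyte genes Kcnj8, Anpep and Higd1b were detected on no array. What part vessels had in the globin signal was not tested.

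**Figure D5:**
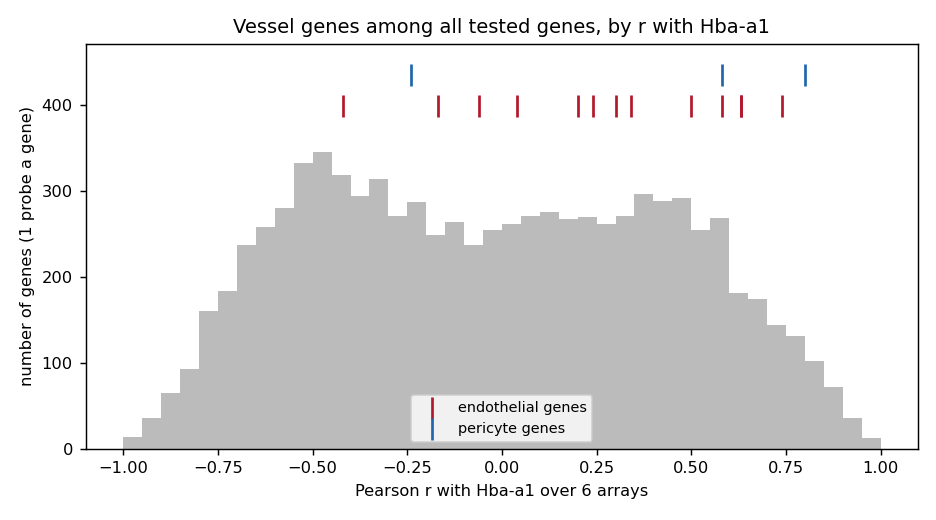
Pearson r with Hba-a1 over 6 arrays for all tested genes outside the 5 members (grey, number of genes per bin, 1 probe a gene), with the 13 endothelial genes (red) and 3 pericyte genes (blue) as ticks. The vessel genes range from -0.42 to 0.80 within the broad spread that 6 arrays give.

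The genes most like Hba-a1 were taken by Pearson r over the 6 arrays among 8622 genes outside the members. They were Slc48a1 (r = 0.991), a haem transporter gene, Batf3 (0.985), Map3k3 (0.985), Ap3b2 (0.980), A430005L14Rik (0.973), Gnpda1 (0.970), Trip6 (0.966) and Hip1r (0.965). None is on the red cell and haem lists, and Slc48a1 spanned 0.42 on the log2 scale where Hba-a1 spanned 2.44. Of all tested probes 0.157% had an r of at least 0.95, 23 of 14635, and 0.143% an r of -0.95 or less. The least alike were Col16a1 (-0.986), the tubulin gene Tubb2b (-0.983), the lysozyme gene Lyz1 (-0.980) and the linker histone gene H1f2 (-0.969). Several of these most and least alike genes lay near background. Among them were Col16a1 (raw 76.85 to 85.38, detected on 3 of 6 arrays), Lyz1 (79.41 to 88.8), Hip1r (74.99 to 90.93) and Batf3 (79.44 to 102.4). H1f2 had raw signals of 2732, 3243 and 4459 in heterozygous lens (arrays a to c) and 2216, 1613 and 3609 in null lens (arrays a to c), highest on heterozygous array c, where the globins were lowest.

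Lens markers varied in both directions against the globin signal. Foxe3, a lens epithelium transcription factor gene, had r = 0.84 with Hba-a1, and the crystallin gene Cryab had -0.83. Of the 10 tested lens markers 7 had a positive r, with a median of 0.13, and Crybb1, Bfsp2 and Pax6 lay near 0 (-0.01, 0.03 and 0.09). Foxe3 was lowest on heterozygous array c (72.95) and highest on null array b (96.78), as Hba-a1 was. It was detected on 5 of 6 arrays and, like Pax6 (77.95 to 96.07), lay near background, unlike Cryab (9342 to 16340). The part of tissue composition in the globin differences was not tested.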

How the data were processed

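RNA was made into biotin-labelled cRNA by the Illumina TotalPrep method, per the labels' protocols. The deposited raw table gives a linear intensity for each probe on each array, with a detection p-value beside it, per the file headers. Raw array medians differ (69 to 76.64), so the intensities are taken as not normalised. The authors also deposited normalised intensities whose method is not stated in the sources used here. Each column there is a linear function of a single raw column of that genotype.

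From the raw intensities, neqc of limma 3.58.1 in R 4.3.3 gave background-corrected (offset 16), quantile-normalised log2 values. The negative controls were inferred through the steps of the detection p-values (936 controls). The filter required a detection p below 0.05 on 3 or more of the 6 arrays, which left 14636 probes and 8626 named genes. The contrast of null minus heterozygous was estimated by lmFit and eBayes (two-sided) and adjusted by Benjamini-Hochberg across all these probes, at 0.05. No replicate number is attached to raw columns. In the authors' table same-numbered samples had deviation correlations of 0.16, -0.15 and -0.15. No pairing by number was seen, but so few samples cannot exclude one. The number of arrays limits the precision.

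Genes other than the members are shown by their brightest probe on average. A bound for Emcn sets the null mean against heterozygous signals raised, array by array, to no less than the dimmest detected probe. Correlations with Hba-a1 used exact two-sided permutation over 720 pairings, adjusted over 16 vessel genes, or over 19 relations with the member pairs. By rule the text names the members, Tdrd7, up to 4 genes of each list with the largest difference, the 3 vessel genes with the highest and the 3 with the lowest r, and the 8 genes most and 4 least like Hba-a1. Hemgn, Robo4, Crybb1, Bfsp2, Pax6 and the Hbb-bs probe ILMN_1255462 were singled out after their values were seen, and undetected genes are named from the lists. Annotation gave 34885 probes a single gene symbol, 18 more than 1 and 10378 no symbol. Promoters were aligned with Biopython 1.88. The fit and the permutation test were tested on simulated data. The members and lists were chosen with earlier results of these data known. The alternatives tried were other background, normalisation, filter and variance settings, each array left out and the authors' values.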

Additional observations from a re-analysis of the deposited data

How the results depend on the processing

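Under all 15 alternatives, the differences of Hba-a1, Hbb-bs and Hbb-bt stayed above 0 and did not pass, at 0.41 to 1.36, 0.29 to 1.04 and 0.25 to 1.12, with limma adjusted p of 0.418 to 1, 0.316 to 1 and 0.391 to 1, the lowest with array weights. In the authors' values they were 0.62, 0.51 and 0.49, with a replicate block or without. Slc4a1 turned to -0.01 with array weights and ran from -0.13 (without null array b) to 0.29 when 1 array was left out. Tdrd7 passed throughout (-3.57 to -3.37). The number of probes called, 2 with all arrays, was 1 without the filter, 13 with array weights (4 of them higher), 1 in the authors' values with the replicate block and 1 to 3 when 1 array was left out. In the lists 0 members passed under any alternative, and of 149 recomputed list medians 13 moved by more than their spread between arrays. Among them was the pericyte value under detection on all 6 arrays, -0.17, which is that of Notch3 alone. The median r of vessel genes with Hba-a1 ran from 0.20 without null array a to 0.49 without heterozygous array a, and 0 relations passed wherever they were tested. Many vessel and red cell probes lie near background, which limits their differences and correlations.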
